A study of Mus musculus with 36 samples.

Results

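The 10 genes described here are Fgf21 and Klb, Ghr and Socs2, Igf1, and the genes of 5 proteins that hold IGF1 in blood, Igfals, Igfbp1, Igfbp2, Igfbp3 and Igfbp4. They were taken by symbol from a list chosen with earlier results of these data known. Each matched 1 of the 33495 genes of the liver table and 1 of the 37991 genes of the kidney table. The RNA came from whole liver and whole kidney of male C57BL/6 mice, 12 months old, of the NIA colony. Mice of all groups were habituated to the AIN-93M control diet. One group was then switched for 1 week to a ketogenic diet with 90% of energy as fat and 10% as protein (7 libraries per tissue). Another was switched for 1 week to a non-ketogenic high-fat diet, with 75% fat, 10% carbohydrate and 10% protein (6 libraries per tissue). The last stayed on the control diet, with 12% fat, 78% carbohydrate and 10% protein (5 libraries per tissue). Diets follow the sample labels. The series' design text instead gives carbohydrate as the 10% that all diets share. Tissue was taken between midnight and 3 am, within the hours when mice feed. The samples carry numbers without a statement that each is a separate mouse, so the p-values rest on the spread among samples, which may be technical.

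FGF21 is a hormone that the liver makes in fasting, on ketogenic diets and when dietary protein is scarce, and it acts through FGF receptors joined to beta-klotho, the protein of Klb. Growth hormone acts on hepatocytes through its receptor, GHR, and the transcription factor STAT5, which raises Igf1, Igfals and Socs2. SOCS2 in turn damps the receptor's signal. IGF1 circulates mostly in a complex with IGFBP3 and the acid-labile subunit, IGFALS. IGFBP1 and IGFBP2 form smaller complexes. Igfbp1 is held down by insulin and Igfbp2 is raised in fasting, and IGFBP4 is a further binding protein that limits access of IGF1 to its receptor. Livers of transgenic mice with excess FGF21 are known to make less Igf1 and more Igfbp1.

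Promoters are shown for 3 members, chosen as examples of genes known to be regulated by insulin, stress or growth hormone. Each is the 250 bases before the annotated start (RefSeq, GRCm38.p6), 5′ to 3′ along the gene. RefSeq promoters were found for 9 of the 10 members, and none is shown for Socs2. Capitals mark matches, on either strand, to 7 motifs: CAAAACA for the insulin response element, TTCNNNGAA for STAT5, TGATGNAA for ATF4, AGGTCA for the unit that PPAR and other nuclear receptors bind as a repeat, CACGTG for an E-box, TGACGTCA for a cAMP response element, and TATAAA. The Fgf21 promoter lies at chr7:45615491-45615740 on the minus strand, that of Igfbp1 at chr11:7197537-7197786 on the plus strand, and the second of 3 annotated Igfals promoters at chr17:24877981-24878230 on the plus strand.
Fgf21: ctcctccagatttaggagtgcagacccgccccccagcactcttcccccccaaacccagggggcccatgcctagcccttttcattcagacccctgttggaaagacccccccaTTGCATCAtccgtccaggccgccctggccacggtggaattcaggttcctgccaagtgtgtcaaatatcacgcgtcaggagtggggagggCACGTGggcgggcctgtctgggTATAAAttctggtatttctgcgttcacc
Igfbp1: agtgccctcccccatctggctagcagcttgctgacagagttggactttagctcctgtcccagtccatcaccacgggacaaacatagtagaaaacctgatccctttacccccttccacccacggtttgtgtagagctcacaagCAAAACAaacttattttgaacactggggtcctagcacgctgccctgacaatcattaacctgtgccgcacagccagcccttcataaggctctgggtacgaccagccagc
Igfals: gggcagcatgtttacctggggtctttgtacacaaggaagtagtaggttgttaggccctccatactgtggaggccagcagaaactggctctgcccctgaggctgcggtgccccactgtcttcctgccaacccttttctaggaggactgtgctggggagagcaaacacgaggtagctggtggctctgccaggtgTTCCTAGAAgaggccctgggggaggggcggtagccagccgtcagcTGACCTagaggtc

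In Fgf21 the ATF4 motif, in its reverse form, ended at position -132 before the start. ATF4 carries the amino acid stress response. The E-box of Fgf21 ended at -45 and the TATA box at -23. The ATF4 motif was present in 3.45% of 32851 promoters, the E-box in 6.02% and TATAAA in 12.4%. Igfbp1 held the insulin response motif at -108 to -102, a match found in 5.56% of promoters. Igfals held a STAT5 motif at -58 to -50 in the promoter shown and another at -236 to -228 in the first of its promoters. That motif was found in 7.02% of promoters, and no other member with a RefSeq promoter had one in this window. Socs2 had no promoter to search. The third Igfals promoter held no match to any motif. Igf1 held AGGTCA at -161 to -156, Igfbp2 an E-box at -142 to -137 and Igfbp4 a TATA box at -28 to -23. The promoter of Igfals shown also held AGGTCA, in reverse, at -13 to -8, and the second Ghr promoter TATAAA, in reverse, at -188 to -183. AGGTCA was found in 14.0% of promoters. Each match is a run of letters in the reference, and no binding was measured in these samples.

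Liver libraries held 18.9 to 35.9 M counts and kidney libraries 25.4 to 47.0 M. Mitochondrial transcripts took 49.7% to 71.7% of liver counts and 68.3% to 79.7% of kidney counts, which left 7.17 to 14.6 M other counts in a liver library and 6.48 to 11.9 M in a kidney library. Levels are CPM, counts scaled to the same library total after TMM scaling, which evens out differences in composition between libraries. Hepatocyte markers summed to 34700 to 52600 CPM over all liver libraries and 774 to 1220 CPM over all kidney libraries. Proximal tubule markers summed to 6550 to 10200 CPM in kidney and 311 to 646 CPM in liver. Both labelled tissues thus carried their own defining markers. In whole tissue, fewer cells of a type and less RNA per cell cannot be told apart. Control library 0 stood apart among the livers. Its stellate cell and fibroblast markers summed to 381 CPM, against 155 to 228 CPM in the other 17 livers, and its macrophage markers to 268 CPM, against 83.2 to 189 CPM. Its endothelial markers summed to 168 CPM, against 98.6 to 140 CPM, and its lymphocyte markers to 20.6 CPM, against 5.45 to 17.9 CPM. Its mitochondrial share was the lowest. Values against control for Fgf21, Klb, Ghr, Igfals and Igfbp3, where it was the highest or lowest of all 18 livers, are given with and without it.

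In the liver, no member passed the adjusted threshold of 0.05 in any pair of diets. For ketogenic against control livers, edgeR's quasi-likelihood test with Benjamini-Hochberg adjustment called 0 of the 10 members and 0% of 13374 tested genes. At an unadjusted p under 0.05 it held 1 of 10 members, Igfbp2, beside 9.38% of tested genes. DESeq2 called 76 genes and limma-voom 0, in each case 0 members. On the high-fat diet against the control diet 0 members and 0% of genes were called, with 0 members and 7.1% of genes at an unadjusted p under 0.05. DESeq2 called 1 gene there and limma-voom 0. On the ketogenic against the high-fat diet 0 members and 0% of genes were called. Igfbp2 alone had an unadjusted p under 0.05, beside 3.19% of genes, and DESeq2 called 1 gene and limma-voom 0. The median log2 fold change of the members was 0.12, -0.05 and 0.16 in these 3 comparisons, beside -0.02, -0.02 and 0.01 over all tested genes. Both comparisons against control use the same 5 control livers. Groups overlapped for every member in every pair of diets, while 0.508%, 0.456% and 0.135% of tested genes had groups that did not overlap.

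**Figure D1:**
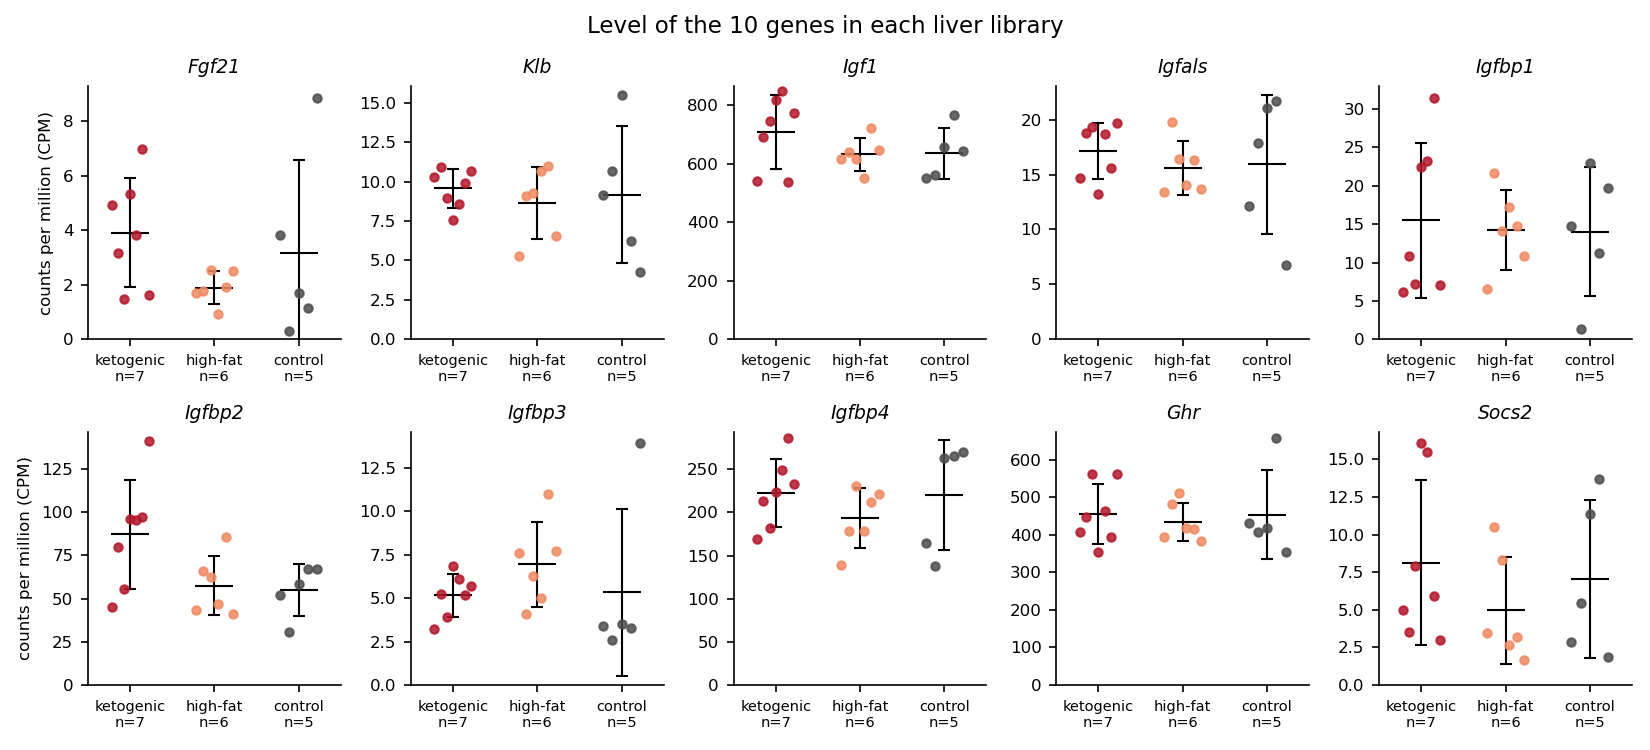
CPM of each gene (linear axes from 0) in every liver library on the ketogenic (n = 7), high-fat (n = 6) and control (n = 5) diets. Each dot is a library, horizontal lines are group means and bars are ± SD, cut at 0 for Fgf21. The 6 high-fat livers sit between 0.909 and 2.54 CPM for Fgf21, while ketogenic and control livers spread further, and the highest Igfbp2 value, 141 CPM, is a ketogenic liver.

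Fgf21 (ENSMUSG00000030827, chr7:52869256-52870860 on the minus strand of mm9) was low and uneven in liver. Over the 7 ketogenic livers its lowest, median and highest levels were 1.47, 3.83 and 6.99 CPM, from 28 to 181 counts a library. Over the 6 high-fat livers they were 0.909, 1.84 and 2.54 CPM, from 25 to 90 counts, and the 5 control livers held 8.83, 1.14, 0.298, 1.68 and 3.81 CPM, from 7 to 260 counts. The control livers thus held both the highest and the lowest value of all 18, and high-fat livers were close together. Means were 3.91 ± 2.01 CPM on the ketogenic diet, 1.89 ± 0.61 CPM on the high-fat diet and 3.15 ± 3.43 CPM on the control diet (SD, n = 7, 6 and 5).

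The log2 fold change of Fgf21 on the ketogenic against the control diet was 0.30 ± 0.53 (SE, 95% interval -0.81 to 1.41, edgeR adjusted p = 0.903). Without control library 0 it was 1.15, and without control library 2, the lowest, it was 0.00. On the high-fat against the control diet it was -0.76 ± 0.55 (adjusted p = 0.748), 0.08 without control library 0 and -1.04 without control library 2. On the ketogenic against the high-fat diet it was 1.06 ± 0.52, 2.08-fold, with an interval from -0.02 to 2.14 (unadjusted p = 0.0546, edgeR adjusted p = 0.999). Leaving out each library in turn gave 0.86 to 1.19 for that last difference. The authors' deposited table gives Fgf21 a false discovery rate of 0.00112 between the high-fat and ketogenic diets, 1 between the control and ketogenic diets and 0.487 between the control and high-fat diets.

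Klb, the co-receptor gene (ENSMUSG00000029195, chr5:65739625-65775242, plus strand), had lowest, median and highest levels of 7.58, 9.91 and 10.9 CPM in ketogenic livers and 5.28, 9.16 and 11 CPM in high-fat livers. The control livers held 4.28, 6.24, 10.7, 15.5 and 9.15 CPM, and the lowest of these was again library 0. Its log2 fold change was 0.05 ± 0.24 on the ketogenic and -0.10 ± 0.25 on the high-fat diet against control (edgeR adjusted p = 0.966 and 0.945). The 95% interval of the first, -0.44 to 0.55, lies inside 0.55 in either direction. Without library 0 the log2 fold changes were -0.13 ± 0.21 and -0.28 ± 0.21, so the first turned sign.

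Ghr (ENSMUSG00000055737, chr15:3267760-3533230, minus strand) was among the most even members in liver. Its lowest, median and highest levels were 355, 447 and 561 CPM on the ketogenic diet and 383, 416 and 512 CPM on the high-fat diet, and the control livers held 354, 658, 408, 418 and 431 CPM. Against control, its log2 fold change was 0.00 ± 0.16 on the ketogenic diet (95% interval -0.33 to 0.34, edgeR adjusted p = 0.996), and -0.07 ± 0.17 without library 0. On the high-fat diet it was -0.06 ± 0.17, and -0.14 ± 0.17 without library 0. Socs2 (ENSMUSG00000020027, chr10:94847996-94879814, minus strand) varied far more, from 2.96 through a median of 5.90 to 16.1 CPM on the ketogenic diet and from 1.65 through 3.31 to 10.5 CPM on the high-fat diet. Control livers held 1.83, 13.7, 5.46, 11.4 and 2.83 CPM, so that each diet had livers at both ends. Its log2 fold change on the ketogenic against the high-fat diet was 0.74 ± 0.54 (edgeR adjusted p = 0.999), and 0.47 to 1.11 with each library left out in turn. The authors' deposited table gives this comparison of Socs2 a false discovery rate of 0.000705.

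Igf1 (ENSMUSG00000020053, chr10:87321010-87399787, plus strand) was the steadiest member in liver. Levels ran from 539 through a median of 746 to 851 CPM on the ketogenic diet and from 552 through 630 to 724 CPM on the high-fat diet. The control livers held 644, 768, 563, 658 and 551 CPM, within the ketogenic range. The log2 fold change was 0.15 ± 0.15 on the ketogenic diet (95% interval -0.15 to 0.46) and -0.01 ± 0.15 on the high-fat diet against control (edgeR adjusted p = 0.786 and 0.993). Igfals (ENSMUSG00000046070, chr17:25015715-25018953, plus strand) ran from 13.2 through 18.7 to 19.7 CPM and from 13.4 through 15.1 to 19.8 CPM on these diets, against 6.79, 21.7, 17.9, 21.1 and 12.1 CPM in control livers. The 6.79 CPM was library 0. Against control, Igfals had a log2 fold change of 0.11 ± 0.21 on the ketogenic and -0.03 ± 0.22 on the high-fat diet, and -0.09 and -0.22 without library 0 (edgeR adjusted p from 0.851 to 0.982).

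Igfbp2 (ENSMUSG00000039323, chr1:72871077-72899048, plus strand) had the lowest p of the members in liver. The ketogenic livers held 97.0, 141, 55.6, 80.0, 95.2, 96.2 and 45.1 CPM, the high-fat livers 65.8, 62.4, 43.2, 41.1, 85.6 and 46.8 CPM, and the control livers 67.2, 67.1, 30.5, 58.3 and 51.8 CPM. Of the ketogenic livers, 5 lay above every control liver and the other two inside the control range. Means were 87.1 ± 31.4, 57.5 ± 17.1 and 55.0 ± 15.1 CPM (SD, n = 7, 6 and 5). The log2 fold change on the ketogenic diet was 0.66 ± 0.25 against control (1.58-fold, 95% interval 0.14 to 1.19, unadjusted p = 0.0151, edgeR adjusted p = 0.428). Against the high-fat diet it was 0.60 ± 0.24 (unadjusted p = 0.0192, edgeR adjusted p = 0.999). The high-fat diet against control gave 0.06 ± 0.26. The first difference stayed between 0.51 and 0.78 with each library left out, with adjusted p from 0.294 to 0.545. The authors' deposited table gives false discovery rates of 0.4 and 0.0852 for the ketogenic diet against control and high-fat.

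Igfbp1 (ENSMUSG00000020429, chr11:7097785-7102549, plus strand) and Igfbp3 (ENSMUSG00000020427, chr11:7106089-7113900, minus strand) are neighbours on chromosome 11. Igfbp1 ran from 6.11 through 10.9 to 31.5 CPM in ketogenic livers and from 6.60 through 14.4 to 21.7 CPM in high-fat livers, against 19.7, 11.3, 1.32, 23.0 and 14.7 CPM in control livers. Its log2 fold change on the ketogenic against the control diet was 0.14 with an SE of 0.52 (95% interval -0.95 to 1.23, edgeR adjusted p = 0.96). A doubling lies inside that interval, beside a wide spread among livers of the same diet. Control library 2, at 1.32 CPM, held the lowest Igfbp1 level of all 18 livers. Igfbp3 ran from 3.22 through 5.23 to 6.84 CPM and from 4.06 through 6.93 to 11 CPM on the same 2 diets, and control livers held 13.9, 3.30, 2.60, 3.53 and 3.37 CPM. One control liver, library 0, was above every other liver and the other 4 were low. The log2 fold change of Igfbp3 against control was -0.05 ± 0.35 on the ketogenic and 0.37 ± 0.36 on the high-fat diet, and 0.69 and 1.12 without library 0 (edgeR adjusted p = 0.445 and 0.482). In liver, Igfbp3 is made by cells other than hepatocytes, and library 0 was also the one high in stellate cell, macrophage, endothelial and lymphocyte markers. The part of those cells in the result was not tested. Igfbp4 (ENSMUSG00000017493, chr11:98902558-98913969, plus strand) ran from 169 to 286 CPM, 139 to 231 CPM and 138 to 270 CPM on the ketogenic, high-fat and control diets, with log2 fold changes of 0.02 ± 0.18 and -0.19 ± 0.19 against control.

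**Figure D2:**
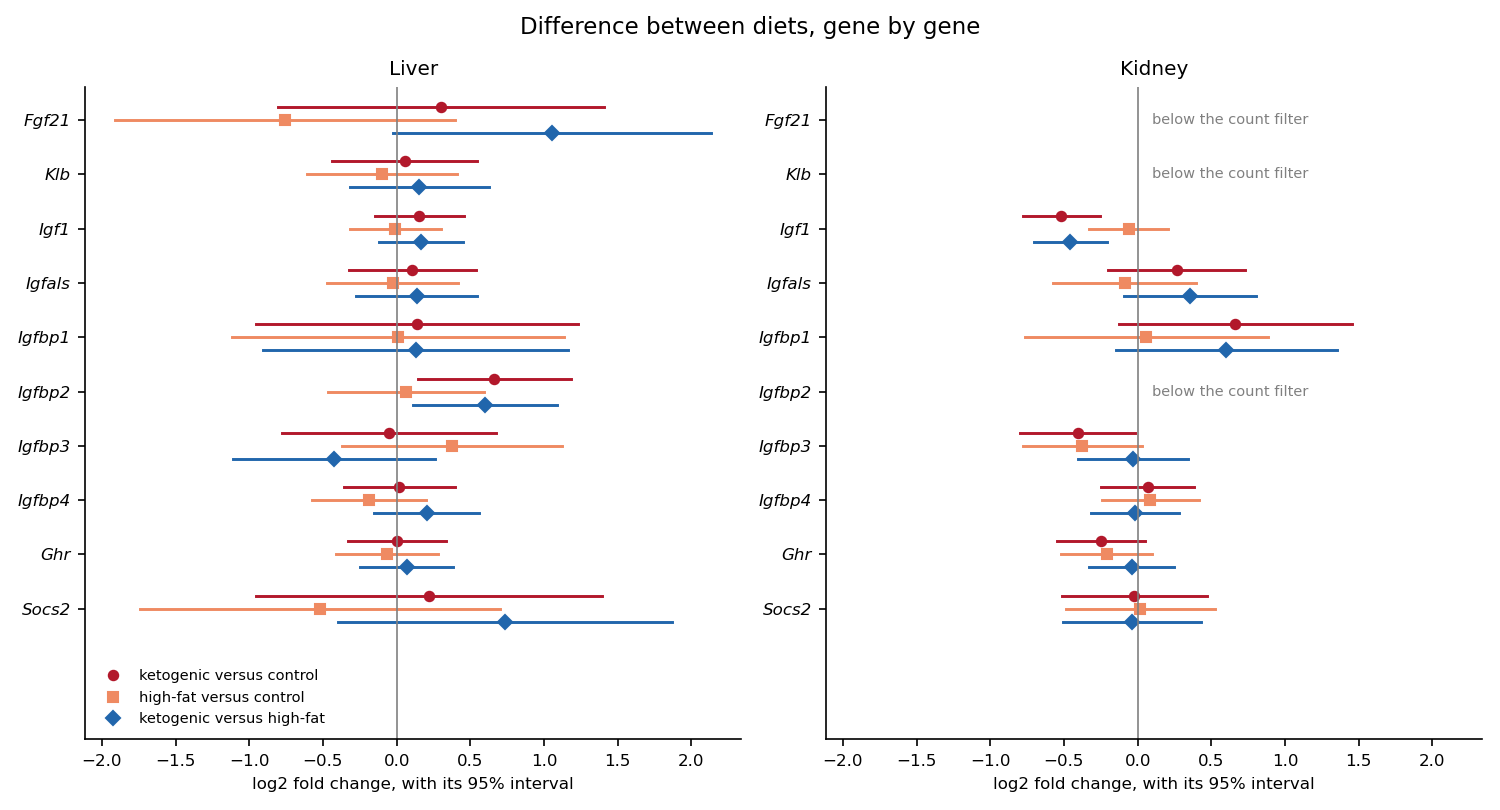
Log2 fold change of each gene between diets in liver and kidney, with its 95% interval from edgeR's fit. Circles are ketogenic against control, squares high-fat against control and diamonds ketogenic against high-fat. Intervals clear of 0 belong to Igfbp2 in liver and to Igf1 and Igfbp3 in kidney, and none of these passed adjustment over all genes.

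In the kidney, 7 of the 10 members passed the count filter. Igf1 was the one with a pair of diets that did not overlap, ketogenic and control. The ketogenic kidneys held 5.06, 6.72, 5.77, 5.60, 5.39, 5.30 and 6.15 CPM of Igf1, from 149 to 239 counts a library. The high-fat kidneys held 7.42, 8.40, 9.94, 8.21, 6.25 and 6.83 CPM, and the control kidneys 9.58, 7.91, 6.95, 6.85 and 9.62 CPM. All 7 ketogenic kidneys lay below all 5 control kidneys, while the high-fat and control ranges overlapped. Means were 5.71 ± 0.57, 7.84 ± 1.31 and 8.18 ± 1.36 CPM (SD, n = 7, 6 and 5). Igf1 was the only member, in any pair of diets and either tissue, whose groups did not overlap, and 0.71% of the 15074 tested kidney genes had groups that did not overlap in this comparison. In the other pairs that share was 0.77% for high-fat against control and 0.206% for ketogenic against high-fat.

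In kidney the log2 fold change of Igf1 was, on the ketogenic against the control diet, -0.52 ± 0.13 (0.699 of the control level, 95% interval -0.78 to -0.26, unadjusted p = 0.000367, edgeR adjusted p = 0.0893). Against the high-fat diet it was -0.46 ± 0.12 (0.729 of its level, unadjusted p = 0.00084, edgeR adjusted p = 0.359), and the high-fat against the control diet gave -0.06 ± 0.13 (95% interval -0.33 to 0.21). Neither ketogenic difference passed the threshold. DESeq2 called the first one, at -0.52 ± 0.14 with an adjusted p = 0.0251. Leaving out each library in turn gave -0.58 to -0.46, with adjusted p from 0.054 to 0.315. The authors' deposited table gives kidney Igf1 a false discovery rate of 0.453 between the control and ketogenic diets. The summed markers of the loop of Henle, distal tubule and collecting duct (10 of 10 with at least 10 counts in a library) were also lower on average on the ketogenic diet. The sum was 782 to 1240 CPM in ketogenic, 824 to 1530 CPM in high-fat and 1100 to 1460 CPM in control kidneys, 0.762 of control on the ketogenic diet (two-sided exact permutation p = 0.0152, adjusted 0.274 over 72 marker comparisons). Umod, the defining marker of the thick ascending limb, and Slc12a1, the transporter of that segment, take most of the sum, with medians of 423 and 255 CPM in ketogenic against 716 and 365 CPM in control kidneys. Weighting the 10 markers equally gave a mean log2 difference of -0.16 (exact permutation p = 0.101), with 8 of 10 below 0. For the ketogenic against the high-fat diet, adipocyte markers summed to 9.67 to 29.5 CPM and 12.8 to 70.0 CPM, a ratio of 0.525 (exact permutation p = 0.0466, adjusted 0.351). Macrophage and Kupffer cell markers, 6 of 11 with at least 10 counts in a library, summed to 15.9 to 24.6 CPM and 21.6 to 26.2 CPM. Their ratio was 0.86 (exact permutation p = 0.0315, adjusted 0.283). The part of these cells in the Igf1 differences was not tested.

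**Figure D3:**
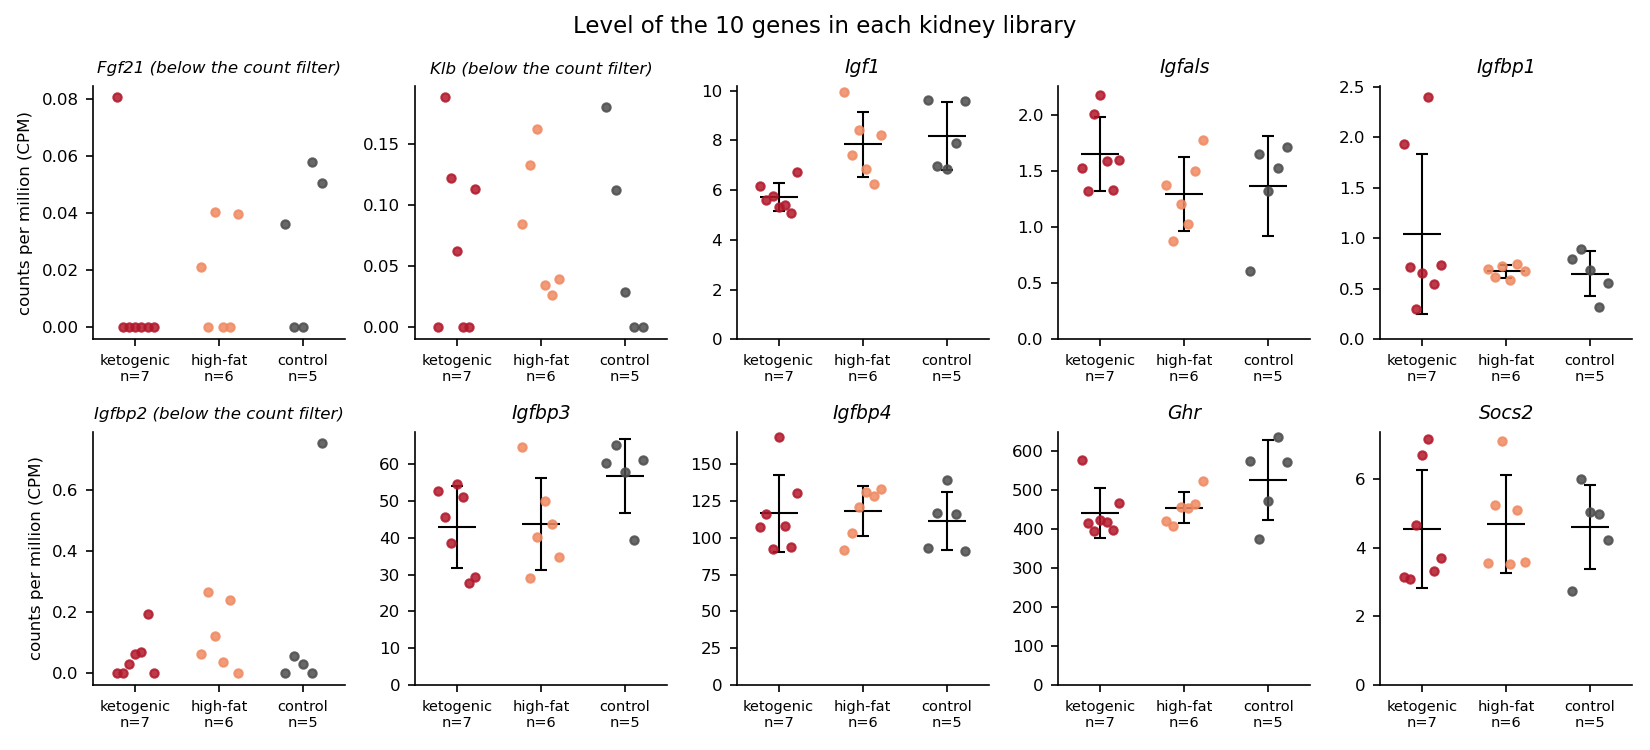
CPM of each gene (linear axes) in every kidney library on the ketogenic (n = 7), high-fat (n = 6) and control (n = 5) diets. Dots are libraries, horizontal lines group means and bars ± SD. Genes below the count filter are drawn without them. For Igf1 every ketogenic kidney, at 5.06 to 6.72 CPM, sits below every control kidney, at 6.85 to 9.62 CPM.

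For the other members in kidney the diets overlapped. edgeR called 0 of the 7 tested members on the ketogenic against the control diet, where 0.325% of tested genes were called, and 2 of 7, Igf1 and Igfbp3, had an unadjusted p under 0.05, beside 8.35% of genes. DESeq2 called 1 member, Igf1, and limma-voom 0. On the high-fat against the control diet edgeR, DESeq2 and limma-voom each called 0 members, edgeR called 0.0133% of genes, and 0 members had an unadjusted p under 0.05, beside 5.73% of genes. On the ketogenic against the high-fat diet all 3 tools called 0 members, edgeR called 0.0464% of genes, and 1 member, Igf1, had an unadjusted p under 0.05, beside 4.07% of genes. The members' median log2 fold change was -0.02, -0.06 and -0.03 in these comparisons, beside 0.02, 0.01 and 0.01 over all tested genes.

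Igfbp3, which renal endothelium is known to make, held 27.8, 29.3, 38.6, 45.7, 51.1, 54.6 and 52.7 CPM in ketogenic kidneys. The high-fat kidneys held 29.2, 40.3, 64.6, 34.7, 43.8 and 50.0 CPM and the control kidneys 61.2, 39.5, 65.1, 57.9 and 60.4 CPM. The log2 fold change was -0.41 ± 0.19 on the ketogenic diet (95% interval -0.80 to -0.02, unadjusted p = 0.0407, edgeR adjusted p = 0.581) and -0.38 ± 0.20 on the high-fat diet against control (unadjusted p = 0.0669, edgeR adjusted p = 0.903). All 7 ketogenic kidneys and 5 of the 6 high-fat kidneys lay below 4 of the 5 control kidneys, while the other control kidney, library 1, lay among them. Endothelial markers summed to 57.6 to 73.6 CPM, 56.0 to 77.3 CPM and 60.7 to 88.9 CPM on the ketogenic, high-fat and control diets.

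Ghr in kidney ran from 396 through 418 to 577 CPM on the ketogenic diet and from 408 through 456 to 523 CPM on the high-fat diet, against 572, 637, 375, 472 and 575 CPM in control kidneys. Its log2 fold changes against control were -0.25 ± 0.15 and -0.21 ± 0.15 (unadjusted p = 0.0961 for the first, edgeR adjusted p = 0.68). Igfals and Igfbp1 were near their counting limits in kidney, at 17 to 70 and 10 to 68 counts a library. The log2 fold change of Igfals on the ketogenic diet was 0.27 ± 0.23 against control and 0.35 ± 0.22 against high-fat. Igfbp1 on the ketogenic against the control diet was 0.66 ± 0.38 (unadjusted p = 0.0962, edgeR adjusted p = 0.68). Against the high-fat diet it was 0.60 ± 0.36, and 0.25 without ketogenic library 4, its highest. Igfbp4 and Socs2 lay within 0.09 of 0 on the log2 scale in all 3 comparisons, with SEs of 0.14 to 0.25.

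Klb and Igfbp2 were counted in kidney only at the edge of detection. Klb gave 15, 16 and 10 counts summed over the ketogenic, high-fat and control kidneys, and at most 5 in a library. Igfbp2 gave 11, 26 and 33 counts, and 30 of the 33 came from control library 0. Two-sided exact permutation tests of log2 CPM for Igfbp2 gave p = 0.679 for ketogenic against control, p = 0.723 for high-fat against control and p = 0.202 for ketogenic against high-fat. With no count filter, edgeR called none of these genes or of Fgf21 (adjusted p from 0.703 to 1).

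Whether liver and kidney differed in their response was tested in 1 fit over all 36 libraries. For Igf1 the response to the ketogenic against the control diet was higher in liver than in kidney by 0.70 ± 0.20 on the log2 scale (95% interval 0.30 to 1.11, unadjusted p = 0.00114, edgeR adjusted p = 0.268). Against the high-fat diet the same difference was 0.60 ± 0.19 (unadjusted p = 0.00303, edgeR adjusted p = 0.899). No member was called in any of the 3 interaction tests, where 0%, 0.013% and 0% of 15430 genes were called for ketogenic against control, high-fat against control and ketogenic against high-fat. At an unadjusted p under 0.05 these held 2, 0 and 1 of the 10 members, beside 7.82%, 5.56% and 3.7% of genes. Igfbp2 was the other member in the first, at 2.44 ± 0.98 (adjusted p = 0.525). Its value was -0.38 without kidney control library 0, which held 30 of its 33 counts in control kidneys. Fgf21, Klb and Igfbp2 were below the count filter in kidney, with 10, 41 and 70 counts over the 18 kidney libraries. They entered this fit through their liver counts, so it cannot show how they respond in kidney.

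On the control diet 8 of the 10 members differed between liver and kidney, beside 60.1% of the 15430 tested genes. Of the members, 7 were called higher in liver, beside 29% of genes, and 1 was called lower, beside 31.1%. Among those called higher, Fgf21, Klb and Igfbp2 were below the count filter in kidney and entered this fit through their liver counts. The direction of their calls was thus set in advance by the filter. In CPM, Igfbp2 was 327-fold higher in liver (log2 8.35 ± 0.56), Klb 168-fold (7.39 ± 0.49), Fgf21 107-fold (6.75 ± 0.76) and Igf1 88.3-fold (6.47 ± 0.19). The fold for Fgf21 rests on 5 counts over the 5 control kidneys. That for Igfbp2 rests on kidney library 0, and its log2 difference was 11.2 without it. Igfbp1 was 24.6-fold, Igfals 13-fold and Igfbp4 2.24-fold higher in liver. Igfbp3 ran the other way, at 0.106 of its kidney level in liver (log2 -3.23 ± 0.33). These 8 were called under all 40 alternatives tried. Ghr did not differ beyond the spread (log2 -0.03 ± 0.17, adjusted p = 0.892), nor did Socs2 (0.78 ± 0.49, adjusted p = 0.172). The tissues came in separate tables, so tissue and any difference in how their libraries were handled cannot be told apart. The gene models also differ: Ghr spans 4416 bases of exon in the liver table and 9053 in the kidney table, Igfbp4 2362 and 4416, and Igfals 2111 and 2893.

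Per kilobase of gene model, the order of levels in control livers was Ghr at 103 CPM per kb, Igfbp4 at 93.1, Igf1 at 64.3, Igfbp2 at 29.8, Igfbp1 at 9.2, Igfals at 7.54, Fgf21 at 3.32, Klb at 2.65, Igfbp3 at 1.72 and Socs2 at 0.74 CPM per kb. Neighbours in this order overlapped, except that Igfbp2 lay below Igf1 and above Igfbp1 in every control liver. In control kidneys the order was Ghr at 58.1, Igfbp4 at 25.1 and Igfbp3 at 18.2, followed by Igf1 at 0.825, Socs2 at 0.482, Igfals at 0.472 and Igfbp1 at 0.426 CPM per kb. Igfbp2, Fgf21 and Klb were at 0.0909, 0.031 and 0.0185 CPM per kb. Ghr lay above Igfbp4 in every control kidney, and all 3 lay far above Igf1, while Socs2, Igfals and Igfbp1 overlapped.

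**Figure D4:**
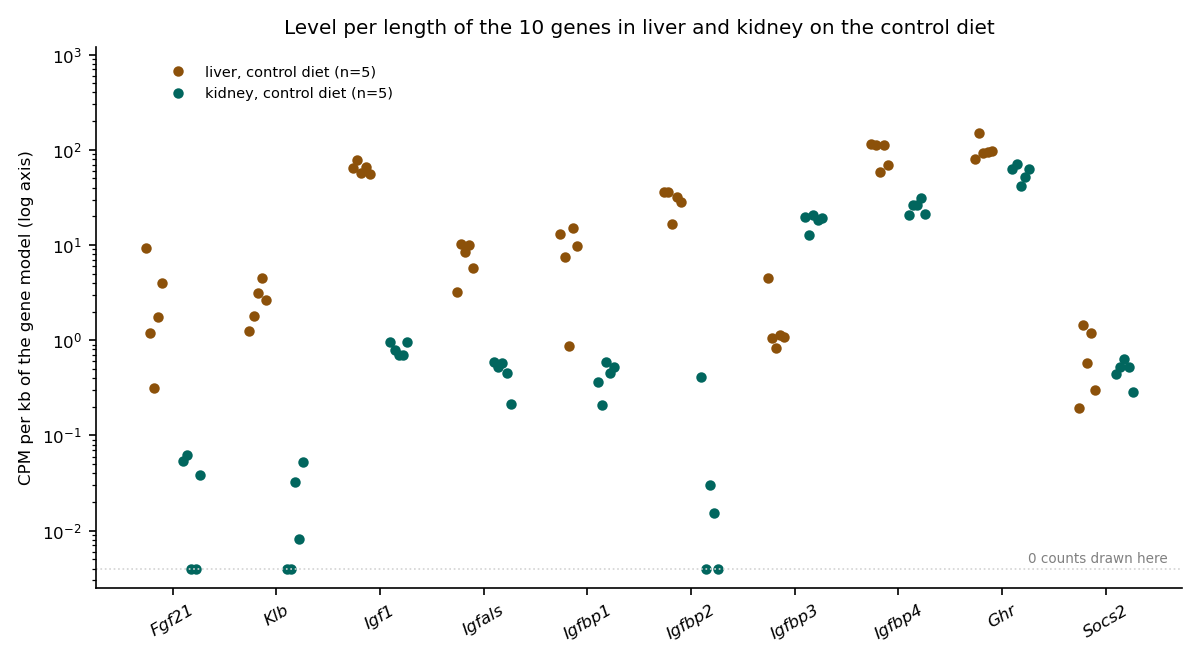
CPM per kilobase of gene model (log axis) of each gene in the 5 control livers, left in each pair, and the 5 control kidneys. Dots are libraries, and those with 0 counts are drawn on the dotted line. Igf1, Igfals, Igfbp1, Igfbp2, Igfbp4, Klb and Fgf21 are higher in liver, and Igfbp3 is higher in kidney. Socs2 overlaps, and Ghr per kilobase is lower in every kidney, where its gene model is longer.

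The members differed greatly in how far livers of 1 diet were from each other. The SD of log2 CPM within diets was 1.10 for Igfbp1, 1.08 for Fgf21 and 1.05 for Socs2, against a median of 0.41 over all tested liver genes. Of the genes with a mean within 0.5 of theirs on the log2 scale, 99.6%, 97.4% and 99.2% had a smaller SD. Igfbp3 followed at 0.62 and Igfbp2, Klb, Igfals and Igfbp4 lay between 0.33 and 0.49. Ghr had an SD of 0.26, and 22.9% of the 70 genes at its level had a smaller one. For Igf1, with 0.21, it was 5% of 40 genes. In kidney the SD was 0.67 for Igfbp1 and 0.46 for Socs2, above 95.2% of genes at the level of Socs2, and 0.20 for Igf1.

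Across the 18 livers, 3 of 45 pairs of members had a Pearson correlation of log2 CPM past a Benjamini-Hochberg adjusted permutation p of 0.05. Igfals and Ghr had r = 0.668 (permutation p = 0.00308, adjusted 0.0462) and rho = 0.773 (p = 0.00023, adjusted 0.0103). The r was 0.736 without the 2 livers farthest from the median of the pair's first gene, 0.903 within the ketogenic and 0.760 within the high-fat livers. Both genes are part of the growth hormone axis. Igfbp2 and Igfbp4 had r = 0.665 (permutation p = 0.00265, adjusted 0.0462) and rho = 0.688 (adjusted 0.0511), with r = 0.617 without its 2 such livers, 0.793 within ketogenic and 0.389 within high-fat livers. Igfbp1 and Igfbp4 had r = 0.661 (permutation p = 0.00191, adjusted 0.0462) and rho = 0.591 (adjusted 0.173), with r = 0.490 without its 2 such livers, 0.818 within ketogenic and 0.420 within high-fat livers. Libraries share depth and composition, which can link genes. In kidney 0 of 21 pairs passed, and Igf1 with Ghr had the highest r, 0.503 (permutation p = 0.034, adjusted 0.53), with rho = 0.424 (adjusted 0.841).

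Fgf21 and Igfbp1, both known to respond to fasting, had r = 0.635 (permutation p = 0.00601, adjusted 0.0561) and rho = 0.467 (adjusted 0.259) across livers. The r was 0.298 without the 2 livers farthest from the median of Fgf21, both on the control diet, which also narrows the range of Fgf21. With diet means subtracted it was 0.679 (adjusted 0.0237, rho = 0.494, adjusted 0.192), and within diets it was 0.677 for ketogenic and -0.228 for high-fat livers. Fgf21 and Igfals had r = -0.539 (permutation p = 0.0243, adjusted 0.11) and rho = -0.511 (adjusted 0.206), and r = -0.393 without 2 livers. With diet means subtracted it was -0.696 (adjusted 0.0237), -0.786 within ketogenic and 0.201 within high-fat livers. Fgf21 and Igf1 had r = 0.042 (permutation p = 0.87, adjusted 0.89) and rho = -0.1 (adjusted 0.781).

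**Figure D5:**
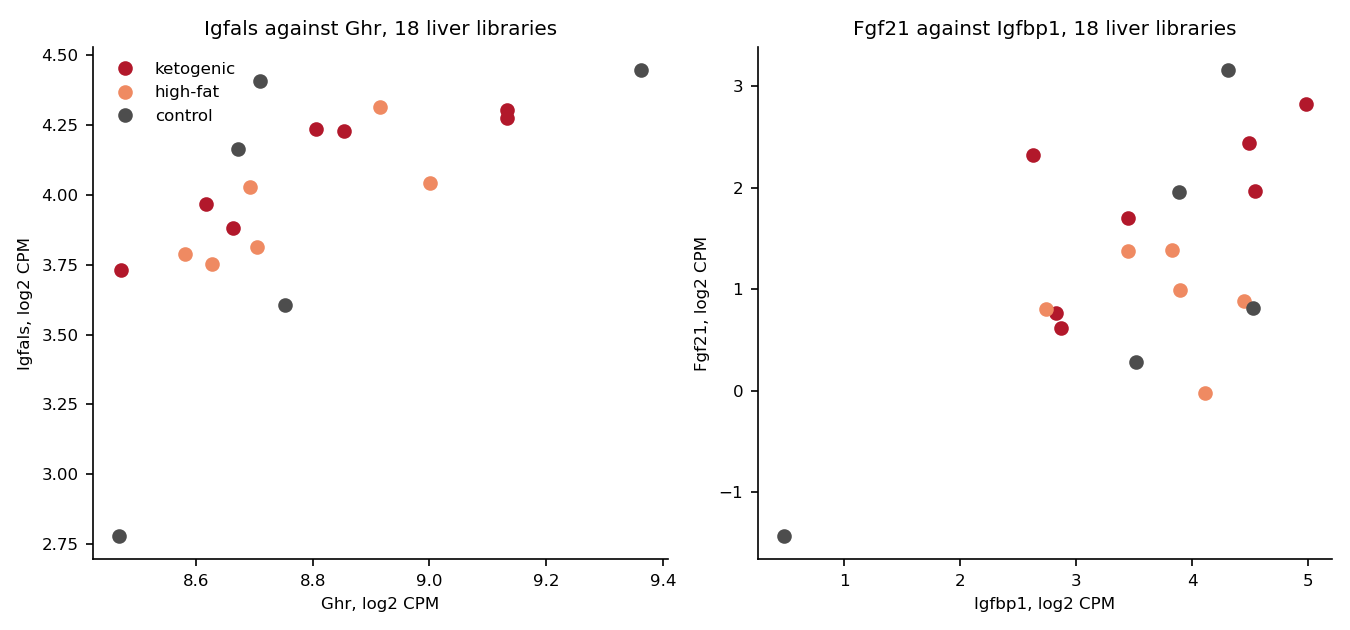
Log2 CPM of Igfals against Ghr (left) and of Fgf21 against Igfbp1 (right) in the 18 livers, colored by diet. Livers high in Igfals were also high in Ghr, with r = 0.668 over all. The link of Fgf21 and Igfbp1, r = 0.635, drops to 0.298 without 2 livers, among them the control liver at lower left.

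Among the 7289 liver genes whose log2 CPM averaged 2 or more, the genes whose pattern over the 18 livers was most like that of Fgf21 included Pla2g6 (r = 0.893), Cmas (0.810), Dus1l (0.797) and Cdv3 (0.796). For Igf1 they were Ndfip1 (0.778), F13b (0.755), Hgf (0.753), Akr1c6 (0.735) and Asf1a (0.732). Igfbp1 was most like Spg20 (0.849), Aamp (0.824), Cope (0.822), 8430408G22Rik (0.822) and Ubb (0.815). Ghr was most like Amn1 (0.850), Lactb2 (0.842), Pank3 (0.830), AI182371 (0.803) and Larp4 (0.801). Among 8176 kidney genes Igf1 was most like Arhgap5 (0.858), Sc4mol (0.851), Trim23 (0.782), 1700066M21Rik (0.781) and Serpinb9 (0.762). Ghr was most like Nceh1 (0.890), C1qtnf3 (0.809), Vmp1 (0.806), Ccdc104 (0.805) and Itfg1 (0.805) there, and Igfbp1 like Hars2 (0.720), Lrrc57 (0.673), Acp6 (0.660), Mtmr11 (0.657) and Gfm2 (0.648). These are ranks over the same 18 libraries and carry no test.

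Around the members, 6 lists of pathway genes were measured. In the liver 0 genes of any list were called in any pair of diets by edgeR. All 10 genes known to answer insulin or FOXO factors were tested. Of these, 4 had an unadjusted p under 0.05 on the ketogenic against the control diet, beside 9.38% of tested genes. Among them Srebf1, the lipogenic transcription factor, was -0.84 ± 0.19 (edgeR adjusted p = 0.224) and Pck1, the gluconeogenic phosphoenolpyruvate carboxykinase, 1.44 ± 0.41 (adjusted p = 0.272). DESeq2 called Srebf1 (adjusted p = 0.0184), and in edgeR's test it passed without control library 4 (adjusted p = 0.0253). The list's median was -0.04. These genes lie in the same pathways as Igfbp1, whose own difference was 0.14 ± 0.52.

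All 10 known regulators of Fgf21 were tested in liver. On the ketogenic against the control diet, 3 had an unadjusted p under 0.05, beside 9.38% of tested genes. The list median was -0.07. Creb3l3, a fasting-responsive transcription factor that works with PPAR alpha on Fgf21, was 0.54 ± 0.15 (edgeR adjusted p = 0.244) and was called by DESeq2 (adjusted p = 0.0493). Ppargc1a was -0.40 ± 0.18 and Rora -0.29 ± 0.13 (adjusted p = 0.492 and 0.505). On the ketogenic against the high-fat diet, where the log2 fold change of Fgf21 was 1.06, Rora was -0.39 ± 0.13 and Creb3l3 0.17 ± 0.14 (edgeR adjusted p = 0.999 for both). Of 7 tested amino acid stress genes, Ddit4 was -1.49 ± 0.48 on the ketogenic diet against control (adjusted p = 0.358), Trib3 0.99 ± 0.60 and Sesn2 -0.29 ± 0.29, with a median of -0.08 over the list. On the high-fat against the control diet Atf4 was -0.41 ± 0.14 (adjusted p = 0.681).

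Of 10 tested genes of FGF receptors, klotho and FGF21 signalling in liver, Fos, an immediate early target, was -1.27 ± 0.61 on the ketogenic diet against control and Fgfr3 -0.94 ± 0.46 (edgeR adjusted p = 0.526 and 0.539), and Dusp6, a feedback phosphatase, was -0.74 ± 0.26 on the high-fat diet (adjusted p = 0.681). Of 12 tested growth hormone signalling genes, Stat5a was 0.52 ± 0.23 on the ketogenic diet (adjusted p = 0.5) and the list median was 0.07. Of 7 tested IGF genes beyond the members, Igfbp5 was 1.02 ± 0.45 on the ketogenic and 1.29 ± 0.46 on the high-fat diet against control (adjusted p = 0.492 and 0.681), and Igf1r, the IGF1 receptor, 0.63 ± 0.34 on the ketogenic diet (adjusted p = 0.594).

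In the kidney Pck1 was the 1 list gene called. It rose 2.31-fold on the ketogenic against the control diet (log2 1.21 ± 0.23, edgeR adjusted p = 0.0118), 1 of 9 tested insulin and FOXO genes, where 0.285% of tested genes were called higher. Its adjusted p ran from 0.0503 to 0.0906 without control library 0, 2 or 4 or ketogenic library 1, each left out alone, so the call rests on each of those libraries. With no normalization factors it was 0.0561. Against the high-fat diet Pck1 was 1.05 ± 0.22 (adjusted p = 0.0872), and it passed without control library 4 (0.0309) or high-fat library 5 (0.0279) and by DESeq2 (0.00271). Creb3l3 was 1.92 ± 0.60 on the ketogenic and 1.38 ± 0.62 on the high-fat diet against control (edgeR adjusted p = 0.279 and 0.862). On the ketogenic against the control diet, 3 of 9 tested amino acid stress genes had an unadjusted p under 0.05, beside 8.35% of tested genes. Among the 3 were Psat1, a serine synthesis enzyme, at 0.52 ± 0.18, and Nupr1 at -0.70 ± 0.33 (adjusted p = 0.379 and 0.583). Htra1, a protease of IGF binding proteins, was -0.29 ± 0.11 on the ketogenic and -0.35 ± 0.12 on the high-fat diet, the lowest p of 12 tested IGF genes beyond the members (adjusted p = 0.433 and 0.618). Cish, a STAT5 target, was -0.60 ± 0.47 on the ketogenic against the control diet. Of 11 tested growth hormone signalling genes, 0 had an unadjusted p under 0.05 there, beside 8.35% of tested genes.

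Markers of other cell types in liver gave no diet difference past an adjusted p of 0.05. The hepatocyte sum had a ratio of 1.01 between ketogenic and control livers (two-sided exact permutation p = 0.828). The sum of 8 adipocyte markers was 19.3 to 48.0 CPM in ketogenic, 2.40 to 32.9 CPM in high-fat and 1.02 to 18.6 CPM in control livers, a ratio of 3.65 of ketogenic to control (exact permutation p = 0.00253, adjusted 0.0911 over 72 marker comparisons). It was carried by Cfd, Cidea and Fabp4, while Lep and Ucp1 were at 0 counts in every liver and Adipoq and Plin1 had medians of 0. The part of such cells in the members' values was not tested. Lists of kidney tubule markers also had small p-values in liver. The loop, distal tubule and collecting duct sum, at most 2.45 CPM, had a ketogenic to control ratio of 3.03 (exact permutation p = 0.00253, adjusted 0.0911). The proximal tubule sum, mostly Slc27a2, had a ratio of 1.39 (exact permutation p = 0.00505, adjusted 0.121). A small p for a marker sum thus does not by itself show that cell type.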

How the data were processed

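RNA-seq libraries of liver and kidney (18 each) on 3 diets were used. The authors deposited counts per gene for liver and kidney in separate tables, made with TopHat2 2.0.11, Subread and featureCounts on mm9, per the submitters' processing notes. The kidney values were listed as estimated counts but held whole numbers as deposited, so none was rounded. The FDR values quoted as the authors' come from the authors' deposited tables, whose notes name DESeq and edgeR. Whether counting used strand is not given in the sources used here, so reads of overlapping genes on opposite strands cannot be told apart. The 90 other per-sample columns were not used.

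Genes passing filterByExpr with a minimum count of 10 were fitted with edgeR 4.0.16 (quasi-likelihood, robust, TMM) over the 3 diets of a tissue, in R 4.3.3. Interactions and the tissue difference came from 1 fit of 36 libraries. P-values were adjusted over all genes tested (Benjamini-Hochberg, threshold 0.05), and 95% intervals are from the same fit. CPM used a prior count of 2 on the log2 scale. Marker sums were compared by exact permutation tests and correlations by 100000 permutations (Python 3.11.15, scipy 1.17.1). The fit was tested on simulated data. Alternatives were DESeq2 1.42.0, limma 3.58.1 (voom), other scalings and filters, a replicate block and leaving out each library. All 10 members are named. From each pathway list, genes past the threshold are named, and otherwise up to 3 per comparison with the smallest p. Genes like a member are the 5 with the highest r. Some genes that these rules name are not reported here. The members and lists were chosen with earlier results of these data known. Promoters come from RefSeq on GRCm38.p6, and gene coordinates are those of the mm9 tables. No library was a duplicate of another of its diet, since chi-square divided by its degrees of freedom was at least 29.8 between livers and 12.5 between kidneys.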

Additional observations from a re-analysis of the deposited data

Results flagged for a closer look

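Among the 51 groups of member levels examined, 4 held 1 library far from the others by Dixon's test, and chance flags about 1 in 20 groups. Igfbp3 in liver control library 0 was at 13.9 CPM, and the other control livers were at 2.6 to 3.53 CPM. Ghr in liver control library 1 was at 658 CPM, beside 354 to 431 CPM in the others. In kidney, Igfbp3 in control library 1 was at 39.5 CPM, beside 57.9 to 65.1 CPM. Ghr in ketogenic library 6 was at 577 CPM, beside 396 to 467 CPM in the other ketogenic kidneys. Without control library 1, the kidney Igfbp3 difference between the ketogenic and control diets was -0.52 on the log2 scale, against -0.41 with it.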

How the results depend on the processing

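Of 6307 values recomputed under alternatives, 6237 were counted as the same, 46 moved, 18 became stronger, 5 became weaker and 1 reversed. A value counted as the same kept its side of the threshold, or stayed within the limit set for counts. It also kept its direction where the 95% interval was clear of 0. Where a difference had a 95% interval that held 0, a turned sign was not counted as a reversal and stayed among the 6237. In all, 158 member values turned sign, in 38 of 91 member comparisons. The reversed value is the tissue difference in the Igfbp2 response to the ketogenic against the control diet, -0.381 without kidney control library 0 and 3.253 at the highest. Of the members, DESeq2 called 1 in kidney on the ketogenic against the control diet (Igf1). With no normalization factors, the median of all genes moved by -0.109 (liver ketogenic against control), -0.179 (liver ketogenic against high-fat), -0.115 and -0.119 (kidney ketogenic and high-fat against control), 0.133 and -0.166 (interactions of high-fat against control and ketogenic against high-fat) and -0.229 (liver against kidney), and member values are to be read relative to those shifts.

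Over all genes, DESeq2 called 76, 1 and 1 genes in liver (ketogenic against control, high-fat against control, ketogenic against high-fat) where edgeR called 0, and 105, 15 and 30 in kidney where edgeR called 49, 2 and 7. In kidney, no normalization factors gave 18 for ketogenic against control and 3 for ketogenic against high-fat, where limma-voom gave 4. A fit of only the 2 diets compared gave 4 in liver for ketogenic against control. With each library left out, that comparison gave 0 to 22 genes in liver (22 without control library 4, 14 without high-fat library 5) and 21 to 56 in kidney (21 without control library 3, 24 without control library 0, 25 without control library 4, 27 without ketogenic library 1). The high-fat against control comparison gave 0 to 1 in liver and 2 to 3 in kidney, and ketogenic against high-fat 0 in liver and 2 to 10 in kidney. The interactions gave 0 to 33 (33 without liver control library 4), 1 to 6 and 0 genes. With a library left out, 0 members were called in each of these. Subtracting diet means gave 10 liver pairs past the adjusted threshold for Pearson's r, against 3 without, and 2 against 1 for rho. The causes were not tested.

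Between liver and kidney, the replicate numbers did not pair the samples. Same-numbered libraries of the tissues had a median correlation of -0.019 over 18 pairs (3 over 0.1). Differently numbered ones had 0.01 over 92 pairs (20 over 0.1), and 3 of 18 livers correlated best with their own number in kidney. Within a tissue, same-numbered libraries of different diets had 0.048 in liver (7 of 16 over 0.1) and 0.109 in kidney (9 of 16). Differently numbered ones had 0.012 in liver (20 of 91) and -0.027 in kidney (26 of 91). Whether libraries of the same number share a batch within a tissue was not tested. A replicate block called 81 genes and 1 member, Igfbp2 at 0.788 ± 0.167 (edgeR adjusted p = 0.0437), in liver on the ketogenic against the control diet. Of the list genes named, it also called Pck1 (1.868, adjusted p = 0.0116), Srebf1 (-0.882, adjusted p = 0.0478) and Creb3l3 (0.665, adjusted p = 0.024) there, and Pck1 in kidney on the ketogenic against the high-fat diet (1.095, adjusted p = 0.0307). It called 4 and 3 genes in kidney for high-fat against control and ketogenic against high-fat, and 0 in the interaction of high-fat against control. In kidney, Igfals and Igfbp1 rest on 17 to 70 and 10 to 68 counts a library.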
